A study of Homo sapiens with 24 samples.

Results

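The control course followed D425 cells, an established human medulloblastoma line, through 96 h of culture, under a label that sets them apart from the cells with the hairpin of the other arrays. Medulloblastoma is a childhood tumour of the cerebellum. The members were the 6 arrays whose titles name the control, 1 each at 0, 8, 16, 24, 48 and 96 h, of 24 arrays in all. The other 18 arrays came from cells with a doxycycline-inducible short hairpin RNA against the homeobox transcription factor OTX2, in 3 independent courses over the same times. All 4 courses shared the line, the MEM medium with 10% fetal calf serum, plating 24 h before induction, and total RNA on Affymetrix U133 Plus 2.0 arrays. The labels call the 6 arrays only "control" and do not say whether these cells hold a vector or another hairpin. The treatment protocol names control cells beside the hairpin cells before it names doxycycline, with no dose and no separate statement that the control received it. The course therefore has no repeat, and time in culture, any time in doxycycline and array cannot be told apart in it.

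Cells that are plated and left in the same dish use up nutrients and growth factors as they become denser, and a culture that slows in growth holds fewer cells in S phase and mitosis. Many mitotic genes share promoter elements, the CCAAT box and the cell cycle genes homology region (CHR), through which the DREAM repressor complex and its activating counterpart with MYBL2 and FOXM1 control them. Doxycycline, used here to switch on hairpins, is a tetracycline that also inhibits mitochondrial ribosomes, and ATF4 is the transcription factor of the stress response to failing mitochondria, amino acid shortage and a burdened endoplasmic reticulum.

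Values are deposited MAS5 signals, a linear brightness per probe set, with a median per array between 16.3 and 20.6 over the 24 arrays. Among the 6 control arrays, correlations across genes ran from 0.971 to 0.988. The 48 h and 96 h arrays stood apart, with the lowest correlation between them. The highest signal of the 48 h array was 15458 against 10395 to 12153 in the others, and its actin 3'/5' ratio, a sign of RNA length and labelling, was 1.55 against 1.30 to 1.44. The 96 h array had the highest signal of the spiked dap control RNA, 366 against 91.8 to 230. The part of these array properties in the results below was not tested, and results that rest on the 48 h or 96 h array are given without it too.

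The arrays carried the markers of the label. Of the 7 markers listed for D425, 6 had a named probe set, and all of these were above the array median on all 6 arrays. OTX2 read 4964, 5241, 5268, 5194, 4902 and 5357 at 0, 8, 16, 24, 48 and 96 h. MYC, which is highly expressed in this line, read 5804, 7017, 6983, 7097, 7807 and 6767. The fitted difference over the course was 0.03 ± 0.14 (SE, log2 scale) for OTX2 and 0.23 ± 0.16 for MYC, neither at an unadjusted p under 0.05. The dimmer of the kept OTX2 probe sets read 3308, 3455, 3855, 3839, 4164 and 3882, with a larger fitted difference of 0.28. MYCN read 5.7 to 27.7, around or below the array median. The summed signal of the 4 endothelial markers was 22.8 to 54.8, of the 4 measured leukocyte markers 21.6 to 48.9, of the 3 astrocyte markers 31.2 to 48.2 and of the 2 measured oligodendrocyte markers 17.7 to 61.6. Fibroblast markers summed to 197 to 396, highest at 48 h, where COL1A1, a collagen chain, read 295 against 94.6 to 162 at the other times. Of the other fibroblast markers PDGFRB was above the array median on all 6 arrays (26.4 to 58.2), DCN on 4, COL1A2 and THY1 on 3 each, and COL3A1, LUM and FAP on none.

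Each gene was described by the straight-line trend of log2(signal + 16) on the rank of time, given as the fitted difference from the first to the last time. A gene is called when its adjusted p (limma, Benjamini-Hochberg over 13903 genes) is under 0.05. By limma on the 6 arrays, 0 of 13903 genes (0%) were called in either direction, with a lowest adjusted p of 0.381. At an unadjusted p under 0.05 there were 444 genes higher (3.19%) and 497 lower (3.57%) with time, 6.77% in all, and at an unadjusted p under 0.01 there were 103 higher (0.741%) and 115 lower (0.827%), 1.57% in all. The count of calls depended on what set the error. A limma fit over all 12 groups of course and time, with a replicate block for course and its error from the courses labelled shOTX2, called 84 genes higher (0.604%) and 111 lower (0.798%), 1.4% in all, and the same fit without the block called 0. Without the 48 h array, the 5 remaining control arrays called 31 higher (0.223%) and 79 lower (0.568%), 0.791% in all, and 59 genes were called in both of these settings. Leaving out any other control array called 0. The block fit and the fit without the 48 h array use the control values from which many genes below were picked. Calls in them are no separate support for those genes. Genes that peaked or dipped inside the course were sought with a quadratic term, and limma called 0 (919 at an unadjusted p under 0.05, 6.61%, of which 2.86% curved upwards and 3.75% downwards).

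The size of the differences was small until 24 h. Set against the 0 h array, 159 genes were past 2-fold at 8 h (0.683% of all genes higher, 0.46% lower) and 155 at 16 h (0.662% and 0.453%). At 24 h there were 182 (0.949% and 0.36%), at 48 h 332 (1.48% and 0.906%) and at 96 h 328 (1.15% and 1.21%). These are comparisons of 1 array with 1 array and have no test. Between arrays of the same time in different courses labelled shOTX2, 100 to 527 genes were past 2-fold over 18 pairs, so each of the control counts lay inside the range that separate cultures gave at a single time. Pairs with course 1 gave 307 to 527, and pairs of courses 2 and 3 gave 100 to 199, below the control counts at 48 and 96 h. The largest step was from 48 to 96 h, with 255 genes higher and 300 lower past 2-fold. These were 555 in all, above the range of the pairs. In the courses labelled shOTX2, 2782, 2745 and 2035 genes were past 2-fold at 96 h.

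**Figure D1:**
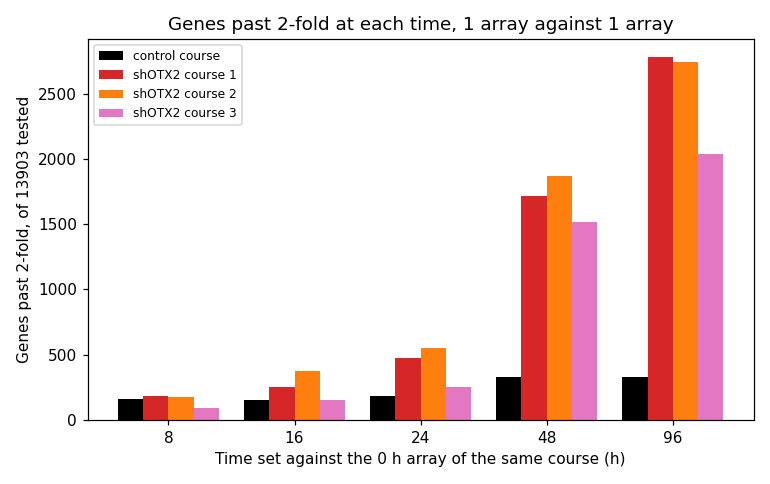
Bars give the number of the 13903 tested genes past 2-fold on the log2(signal + 16) scale at each time against the 0 h array of the same course, for the control course and the 3 courses labelled shOTX2. The control course stays between 155 and 332 genes, while the other courses reach 2035 to 2782 at 96 h.

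Genes that ran one way at every step were few: 33 (0.237%) were higher at each of the 5 steps and 30 (0.216%) were lower at each. Of these, 17 had an unadjusted p under 0.01 (5 higher, 12 lower), and none was called. The brighter of the 12 that were lower at every step include CDK1, MCM10 and TOP2A. CDK1, the kinase that drives entry into mitosis, read 2019, 1926, 1467, 1428, 1357 and 834 (fitted difference -1.12 ± 0.20). MCM10, which helps open replication forks, read 600, 544, 474, 396, 391 and 244 (-1.12 ± 0.20). ORC1, the largest subunit of the origin recognition complex, read 168, 139, 130, 104, 104 and 69.8 (-0.98 ± 0.22). The largest of the 5 steps was the last in CDK1 and MCM10.

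TOP2A, the topoisomerase that untangles chromosomes before they part, read 2804, 2644, 2390, 2354, 2262 and 1656 (-0.64 ± 0.17). RBL1, which encodes the pocket protein p107 and is itself transcribed in S phase, read 79.0, 73.6, 60.9, 56.8, 46.0 and 35.7. DCLRE1B, the Apollo nuclease that guards telomeres, read 319, 282, 233, 203, 198 and 195. DCLRE1B thus had most of its difference by 24 h, while TOP2A had its largest step between 48 and 96 h.

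The other members of the steadily lower set were dimmer or have less defined roles. LGI2, a secreted leucine-rich repeat protein of neurons, read 58.7, 54.0, 49.3, 34.6, 24.9 and 7.3 (-1.59 ± 0.31), the largest fitted difference of the set. NAV3, a microtubule-binding neuron navigator, read 30.0, 20.3, 17.5, 10.9, 5.4 and 5.0. Both ended below the array median. TMPO-AS1, an antisense RNA at the TMPO locus, went from 62.8 to 20.6, MOV10, an RNA helicase, from 60.8 to 20.8, SPIN4 from 654 to 393 and LINC00467 from 202 to 122.

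RNA45SN5, the precursor of the ribosomal RNAs, had the largest steady increase in value: 88.8, 129, 132, 168, 176 and 543 (fitted difference 1.94 ± 0.36). The array's own control probes for the middle of 28S ribosomal RNA read 730, 945, 823, 697, 849 and 2040 over the same arrays, so at 96 h both were highest together, as was the dap spike named above. Whether more ribosomal RNA entered the labelling on that array was not tested. REEP1, which shapes the endoplasmic reticulum of axons, read 567, 636, 658, 698, 784 and 816. SUGT1, a co-chaperone of HSP90, read 677, 764, 765, 785, 892 and 1051. H4C8, a histone H4 gene, read 17.4, 23.4, 25.2, 28.7, 39.8 and 49.7, and the transcribed pseudogene CUTALP 317, 357, 398, 430, 446 and 538.

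Of these 17 genes, RNA45SN5 (adjusted p = 2.03e-05), SUGT1 (0.0497), LGI2 (0.0233), NAV3 (0.0447), CDK1 (0.0445), MCM10 (0.0329) and DCLRE1B (0.0322) were called by limma with the replicate block. Without the 48 h array, limma called RNA45SN5 (adjusted p = 0.0139), LGI2 (0.046), CDK1 (0.0139), MCM10 (0.0156), ORC1 (0.0488) and TOP2A (0.0408). Over all genes 1.4% were called with the replicate block and 0.791% without the 48 h array. The 17 genes were picked from the same control arrays, so these calls are no separate support.

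**Figure D2:**
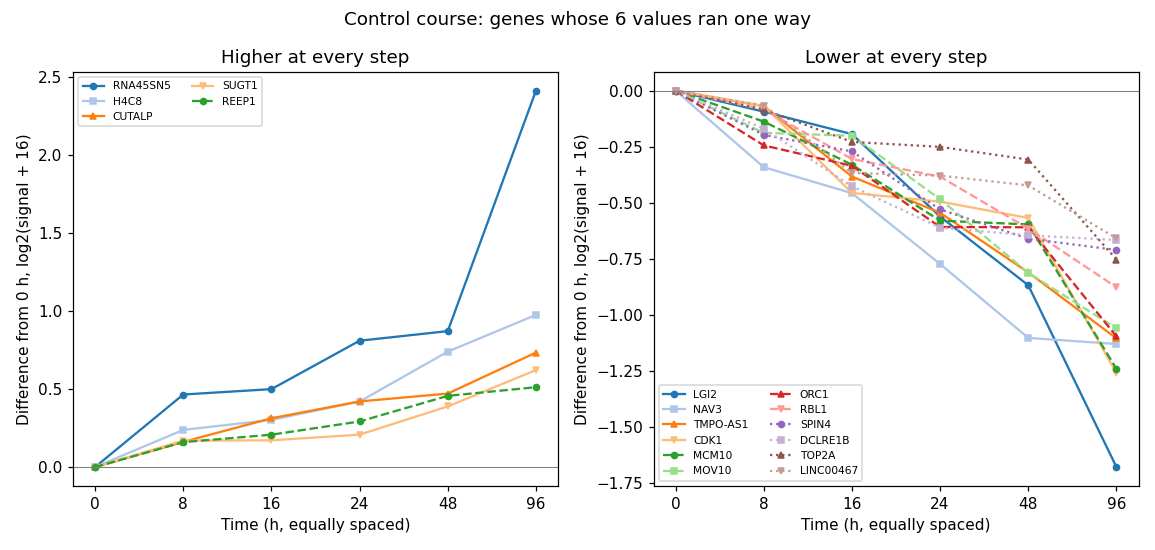
Lines give the difference from the 0 h array on the log2(signal + 16) scale for the 5 genes that were higher and the 12 that were lower at every step of the control course with an unadjusted p under 0.01, 1 array per time. RNA45SN5 makes most of its difference between 48 and 96 h, and LGI2 ends lowest of the 12.

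Mitotic genes were lower over the course as a group. All 66 tested members of the G2/M and mitosis list had a negative fitted difference, with a median of -0.68 against 0.02 over all tested genes, and 45 of them were lower at an unadjusted p under 0.05 (3.57% of all genes) and none higher. By adjusted p, 0 of 66 were called by limma on the 6 arrays, 14 with the replicate block and 28 without the 48 h array. The median difference from 0 h was -0.11 for 8 h, -0.41 for 16 h and -0.45 for 24 h, then -0.15 for 48 h and -0.92 for the last array. In bulk RNA, fewer cells in mitosis and less of these RNAs per cell cannot be told apart. The list was lower by 16 h, came back towards its starting level on the 48 h array, where 55 of 66 members were above their 24 h value, and was lowest at 96 h, where 59 of 66 had their lowest value. Of all 13903 genes, 7042 were above their 24 h value at 48 h and 3280 were lowest at 96 h. Without the 96 h array the median fitted difference was -0.30, with 11 members lower at an unadjusted p under 0.05, and without the 48 h array it was -0.91 with 62. Over all genes 5.1% were lower at that p without the 96 h array and 6.18% without the 48 h array.

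Besides CDK1, the members of this list with the largest fitted differences were MYBL2, SPC25 and MKI67. MYBL2, the activator subunit that replaces the DREAM repressor, read 404, 402, 393, 289, 370 and 111 (fitted difference -1.34 ± 0.39). SPC25, a subunit of the NDC80 kinetochore complex, read 383, 305, 237, 202, 219 and 132 (-1.25 ± 0.22), and MKI67, the proliferation antigen Ki-67, read 498, 511, 370, 372, 404 and 195 (-1.06 ± 0.27). MYBL2 held its level to 16 h and had its largest step between 48 and 96 h, whereas SPC25 and CDK1 were lower already at 16 h. Without the 48 h array MYBL2 (adjusted p = 0.0313), SPC25 (0.0139) and MKI67 (0.0269) were called by limma, and with the replicate block SPC25 (0.0128) and MKI67 (0.00745).

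The promoters of the mitotic genes were read for the letters of the elements named above. The window was the 250 bases before each gene's start in the RefSeq promoter table of GRCh38.p14, in which 57 of the 66 G2/M members were found. Either TTTGAA or TTCGAA, the letters of the CHR, stood on either strand in 29 of the 57 (50.9%), against 10.3% of the 11178 tested genes with a promoter in the table and 14.6% of all 27305 promoters. CCAAT stood on either strand in 40 of the 57 (70.2%), against 34.9% and 33%. Both were present in 23 (40.4%), against 4.19% and 5.24%. A match is a run of letters and not a shown binding site. Listed members were counted whatever their trend, so these shares describe the list and not its course over time.

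The promoters of the 3 G2/M genes with the lowest fitted difference that hold both are given 5′ to 3′ on the gene's strand and ending at the base before the start; capitals mark CHR and CCAAT letters on either strand, which overlap in the last. SPC25 lies at chr2:168890431-168890680, minus strand, CDK1 at chr10:60778081-60778330, plus strand, and MKI67 at chr10:128126424-128126673, minus strand.
SPC25: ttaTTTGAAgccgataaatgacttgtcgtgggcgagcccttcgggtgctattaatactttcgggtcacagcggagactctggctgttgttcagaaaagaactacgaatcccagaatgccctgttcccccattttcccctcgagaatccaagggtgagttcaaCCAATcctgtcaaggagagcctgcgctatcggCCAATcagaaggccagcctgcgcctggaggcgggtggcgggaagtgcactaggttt
CDK1: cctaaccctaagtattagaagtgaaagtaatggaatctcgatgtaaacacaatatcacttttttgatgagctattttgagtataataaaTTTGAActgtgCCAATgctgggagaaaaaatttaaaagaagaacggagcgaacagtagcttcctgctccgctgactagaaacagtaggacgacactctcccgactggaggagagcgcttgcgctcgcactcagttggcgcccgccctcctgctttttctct
MKI67: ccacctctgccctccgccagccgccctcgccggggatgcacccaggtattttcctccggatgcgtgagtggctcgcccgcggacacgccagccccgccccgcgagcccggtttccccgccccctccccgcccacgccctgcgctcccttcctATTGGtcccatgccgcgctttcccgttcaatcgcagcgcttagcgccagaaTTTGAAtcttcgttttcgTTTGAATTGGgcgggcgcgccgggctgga
In MKI67 the nearest CHR letters end 23 bases before the start, in CDK1 155 bases and in SPC25 241 bases before it.

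Genes of G1/S and DNA replication took a similar but shallower course. Of 51 tested members, 49 had a negative fitted difference, the median was -0.55, and 23 were lower at an unadjusted p under 0.05 (3.57% of all genes) and none higher. limma called 0 on the 6 arrays, 8 with the replicate block and 11 without the 48 h array. Its median difference from 0 h deepened from -0.17 (8 h) to -0.26 (16 h) and -0.33 (24 h), stood at -0.18 (48 h) and ended at -0.75. FEN1, the flap nuclease that matures Okazaki fragments, read 1640, 1460, 1377, 1499, 913 and 748 (fitted difference -1.07 ± 0.22). TK1, thymidine kinase of S phase, read 697, 601, 534, 464, 606 and 272 (-0.96 ± 0.28). FEN1 was already low at 48 h, while TK1 was higher there than at 24 h, as most members of the list were (38 of 51). Of the 45 members with a promoter in the table, 3 (6.67%) held CHR letters and 24 (53.3%) CCAAT. TK1 (adjusted p = 0.0139) was called without the 48 h array, and TK1 (0.0252) and FEN1 (0.0231) with the replicate block.

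Together the G1/S and G2/M lists make up 117 of the 13903 tested genes (0.842%). They held 39 of the 79 genes (49.4%) called lower without the 48 h array, 22 of the 111 (19.8%) called lower with the replicate block, and 0 of the genes called higher in either setting. The lists were written with earlier results of these data known, and the calls use the same control arrays. Most members were above their 24 h value at 48 h, so leaving that array out removes much of their scatter. These shares are therefore no separate support. The list of cell cycle inhibitors had a median of -0.08, nearer to that of all genes (0.02) than the medians of those lists. Of its 26 tested members 2 were lower, RBL1 among them, and 1 higher at an unadjusted p under 0.05 (3.57% and 3.19% of all genes).

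Genes of the ATF4 and amino acid response were higher with time. Of 41 tested members, 37 had a positive fitted difference, with a median of 0.40, and 13 were higher at an unadjusted p under 0.05 (3.19% of all genes) and none lower. limma called 0 on the 6 arrays, 3 with the replicate block and 4 without the 48 h array, and without the 96 h array 6 members were higher at an unadjusted p under 0.05 (4.65% of all genes). The median difference from 0 h was -0.19 for the 8 h array, 0.19 and 0.18 for the next 2, 0.04 for 48 h and 0.33 for the last, so again the 48 h array lay nearer to 0 h than its neighbours. TRIB3, a pseudokinase induced by ATF4, read 410, 357, 519, 537, 490 and 1003 (fitted difference 1.09 ± 0.28). DDIT3, the stress factor CHOP, read 193, 194, 241, 280, 195 and 504 (0.97 ± 0.33). DDIT4, the mTORC1 inhibitor REDD1, read 213, 152, 332, 324, 168 and 580 (1.04 ± 0.47), and SLC1A4, a neutral amino acid transporter, read 271, 185, 403, 410, 343 and 486 (0.94 ± 0.30).

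All 4 were above their 0 h value at 16, 24 and 96 h, while DDIT4 at 48 h was below it. TRIB3 (adjusted p = 0.0288), DDIT3 (0.0227) and DDIT4 (0.0408) were called by limma without the 48 h array, and TRIB3 (0.024) and DDIT3 (0.0497) with the replicate block.

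The unfolded protein response list shared this direction, with its difference on the 96 h array. Of 23 tested members 20 had a positive fitted difference, the median was 0.34, and 4 were higher and none lower at an unadjusted p under 0.05 (3.19% and 3.57% of all genes). The median stood between 0.01 and 0.17 up to 48 h and at 0.47 at 96 h, and without the 96 h array the median fitted difference was 0.11. HSPA5, the chaperone BiP, read 2590, 3565, 3136, 3329, 3492 and 4517 (0.57 ± 0.18). HERPUD1, which takes part in degrading misfolded proteins, read 1227, 1250, 1437, 1483, 1270 and 2362 (0.68 ± 0.24). EIF2AK3, the sensor kinase PERK, read 274, 253, 311, 332, 196 and 643 (0.71 ± 0.41), and without the 96 h array its fitted difference was -0.27. HSPA5 was thus high from 8 h on, and the other pair chiefly at 96 h. Without the 48 h array EIF2AK3 (adjusted p = 0.044) and HERPUD1 (0.0313) were called, and with the replicate block HERPUD1 (0.0338) and HSPA5 (0.0282).

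Nuclear genes of the mitochondrion, whose ribosomes doxycycline binds, had list medians between -0.06 and 0.07. Of 46 nuclear genes for mitochondrial ribosomal proteins, 4 were lower and none higher at an unadjusted p under 0.05 (3.57% and 3.19% of all genes), with a median of -0.06. MRPL20, a protein of the large mitochondrial ribosomal subunit, read 1753, 1553, 1353, 1434, 860 and 1294 (fitted difference -0.66 ± 0.24, adjusted p by limma with the replicate block = 0.0175). Of 46 nuclear genes for respiratory chain subunits, 1 was lower and none higher (median -0.05), and of 23 genes for mitochondrial chaperones, proteases and stress factors 1 was higher and none lower (median 0.07). HSPA9, the mitochondrial chaperone mortalin, read 1496, 1391, 1609, 1690, 1527 and 2079 (0.40 ± 0.18). Transcripts of the mitochondrial genome had no named probe set and were not analysed here. An effect of doxycycline was not tested, and no separate statement says that the control received it.

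Cytosolic ribosomal protein genes were set apart by the 48 h array. None of the 29 tested members passed an unadjusted p under 0.05 in the trend, whose median was 0.10. Their median stood 0.22 above the 0 h array at 8 h, 0.08 above it at both 16 and 24 h, 0.41 at 48 h and 0.01 at the end, and 22 of the 29 were highest at 48 h, against 3390 of all 13903 genes. RPL3 read 6917, 7637, 7081, 7487, 10869 and 6928. Without the 48 h array the median fitted difference of the list was -0.05, and that of RPL3 was -0.027 against 0.23 with it. The list of MYC and ribosome biogenesis genes, the nucleolar factors that assemble ribosomes, kept a flat course, with medians between -0.04 and 0.07 at all times and 1 of 30 lower and 2 higher at an unadjusted p under 0.05. NOC3L, a nucleolar assembly factor, read 680, 730, 736, 726, 829 and 929, and UTP20 read 141, 149, 133, 159, 158 and 86.0.

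Replication-dependent histone genes, whose mRNAs normally lack a poly(A) tail, were divided in sign, with 17 of 25 tested members positive and 8 negative, against 7290 and 6613 of all genes. Of the 25, 9 were higher and none lower at an unadjusted p under 0.05 (3.19% and 3.57% of all genes), with a median of 0.22 and 2 called with the replicate block. The median difference from 0 h was 0.10, 0.22, 0.36, 0.20 and 0.46 at 8, 16, 24, 48 and 96 h. H3C6 read 35.7, 27.4, 50.2, 54.4, 73.0 and 100.1 (fitted difference 1.29 ± 0.28, adjusted p by limma with the replicate block = 0.0233). H2AC6 read 133, 189, 256, 270, 189 and 437 (1.16 ± 0.32, adjusted p without the 48 h array = 0.0139). Histone genes of a cluster are close in sequence, and the probe sets may share signal.

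**Figure D3:**
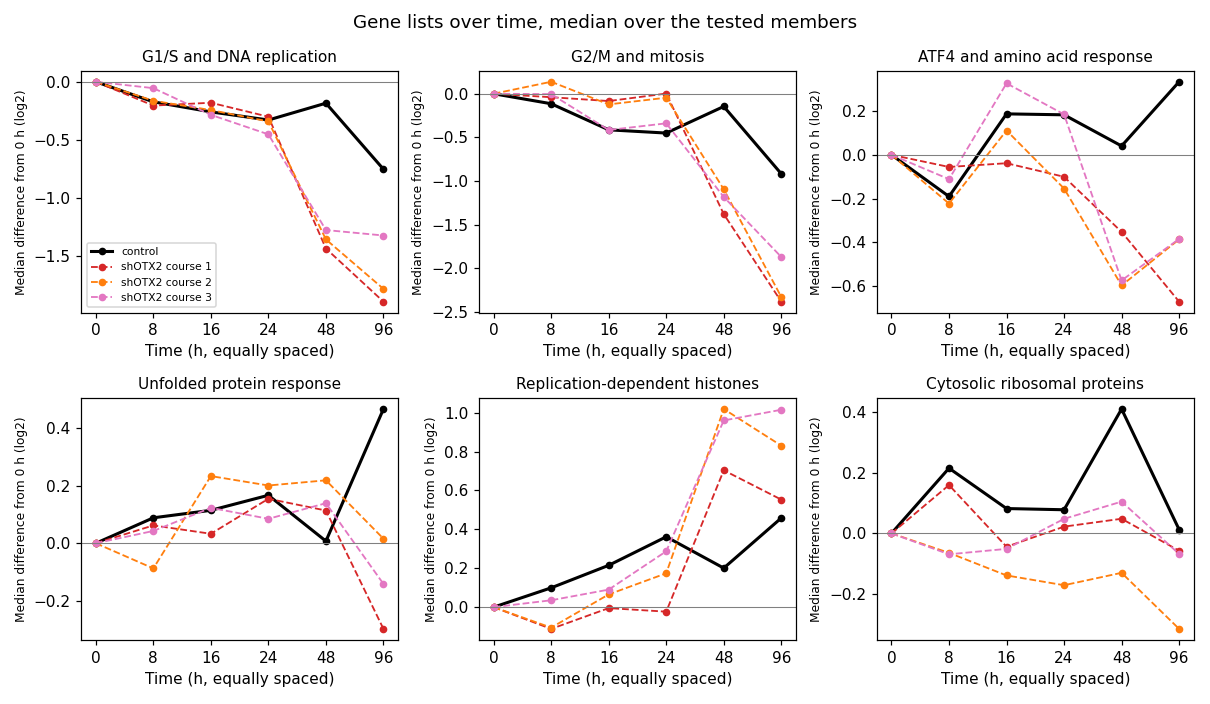
Each panel gives, for a gene list, the median over the tested members of the difference from the 0 h array of the same course (log2 scale) for the control course (black) and the 3 courses labelled shOTX2 (dashed). In the control course the cell cycle lists return towards 0 at 48 h and end at -0.75 and -0.92, and the ribosomal protein list is highest at 48 h.

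Photoreceptor genes, which OTX2 and its relative CRX activate in the retina and which mark this kind of medulloblastoma, showed no loss as a list. Of 36 tested members, 5 were higher and 1 lower at an unadjusted p under 0.05 (3.19% and 3.57% of all genes), with a median of 0.17. Their medians were 0.27 and 0.25 at 16 and 24 h, 0.05 at 48 h and 0.25 at 96 h. GUCA1A, the guanylate cyclase activator of photoreceptors, read 473, 507, 571, 632, 560 and 1029 (fitted difference 0.86 ± 0.23, adjusted p without the 48 h array = 0.0252), and 2 of its 3 probe sets had this sign. GNB3, the transducin subunit of cones, read 270, 274, 464, 496, 370 and 454 (0.70 ± 0.27). SAG, the arrestin of rods, had the opposite sign and read 36.0, 35.5, 39.8, 38.5, 18.6 and 15.1 (-0.78 ± 0.32). CRX read 124, 142, 195, 168, 132 and 274 (0.68 ± 0.30), highest at 96 h and nearly back to its 0 h value at 48 h. Neuronal differentiation genes had 4 of 42 members higher and 2 lower at an unadjusted p under 0.05 (median 0.13). SCG3, a secretory granule protein, read 11, 13.1, 23.2, 12.6, 23.4 and 50.9, and GRIA2, a glutamate receptor subunit, read 4.0, 5.7, 3.0, 10.4, 4.6 and 32.1. GRIA2 was below the array median up to 48 h, and both were highest on the last array.

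Single genes of other lists had larger differences than their lists. EGR1, an immediate early transcription factor induced by growth factors and stress, read 64.2, 92.7, 177, 171, 124 and 425.4 (fitted difference 1.91 ± 0.40, adjusted p without the 48 h array = 0.00801). Its list had 3 of 29 higher and 2 lower at an unadjusted p under 0.05 (3.19% and 3.57% of all genes). CCN1, a matricellular target of YAP, was lower: 132, 124, 97.3, 90.6, 93.4 and 48.4 (-1.02 ± 0.26, adjusted p without the 48 h array = 0.0467). CTSV, a lysosomal cysteine protease, read 1309, 1518, 1213, 872, 1172 and 413 (-1.39 ± 0.36), and was called with the replicate block (adjusted p = 0.0175) and without the 48 h array (0.02). SC5D, an enzyme of the last steps of cholesterol synthesis, read 1048, 1264, 707, 578, 848 and 520 (-0.99 ± 0.29, adjusted p with the replicate block = 0.0178).

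In the lists of SC5D and CTSV, counting these genes, the share of lower members was above that of all genes (3.57%). Of 20 sterol genes 3 were lower and none higher at an unadjusted p under 0.05, and of 35 lysosome and autophagy genes 3 were lower and 1 higher. The hypoxia and glycolysis list had 1 of 33 higher and none lower (median 0.01), VEGFA, the angiogenic growth factor, reading 623, 607, 798, 757, 708 and 1140. The p53, interferon, NRF2, heat shock and circadian lists had medians between -0.09 and 0.19. In the interferon list 4 of 16 members were lower and 1 higher at an unadjusted p under 0.05 (3.57% and 3.19% of all genes). TXNIP, which glucose induces through MondoA and which restrains glucose uptake, kept 230 to 269 up to 48 h and read 100.3 at 96 h (-0.84 ± 0.34, adjusted p with the replicate block = 0.0194). SLC1A3, a glutamate transporter listed as an astrocyte marker, read 133, 152, 208, 183, 170 and 308, while of the 3 astrocyte markers GFAP stayed between 1.2 and 2.8, AQP4 between 1.0 and 7.3 and ALDH1L1 between 22.0 and 39.7, above the array median on all 6 arrays.

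The 48 h array departed from the line between its neighbours more than any other inner time. Past 2-fold from the mean of the 24 h and 96 h arrays were 227 genes (0.726% higher, 0.906% lower). Against their own neighbours, 78 genes were past it at 8 h (0.295% and 0.266%), 78 at 16 h (0.144% and 0.417%) and 89 at 24 h (0.396% and 0.245%). The corresponding counts at 48 h in the courses labelled shOTX2 were 133, 194 and 131. ID1 and ID3, inhibitors of DNA binding induced by BMP signals, were the highest of the 6 arrays at 48 h and the lowest at 96 h. ID1 read 2732, 2769, 3030, 2501, 3959 and 923, and ID3 read 495, 587, 497, 361, 688 and 134. Chosen after their values were seen, TTC12, a factor for assembling dynein arms, read 606, 619, 513, 430, 601 and 97.7, and KIF20A, a kinesin of cytokinesis, read 622, 578, 431, 516, 859 and 218.

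For KIF20A and the ID genes the difference over the course rests on the 96 h array, without which the fitted differences were 0.38 for KIF20A, 0.46 for ID1 and 0.12 for ID3, against -0.76, -0.93 and -1.23 with it. Without the 48 h array ID3 (adjusted p = 0.0313), TTC12 (0.0252) and KIF20A (0.0408) were called by limma, and with the replicate block TTC12 (0.0118) and KIF20A (0.0451). These genes are shown for their 48 h values, so leaving that array out removes much of their scatter. Their calls without it are therefore no separate support.

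**Figure D4:**
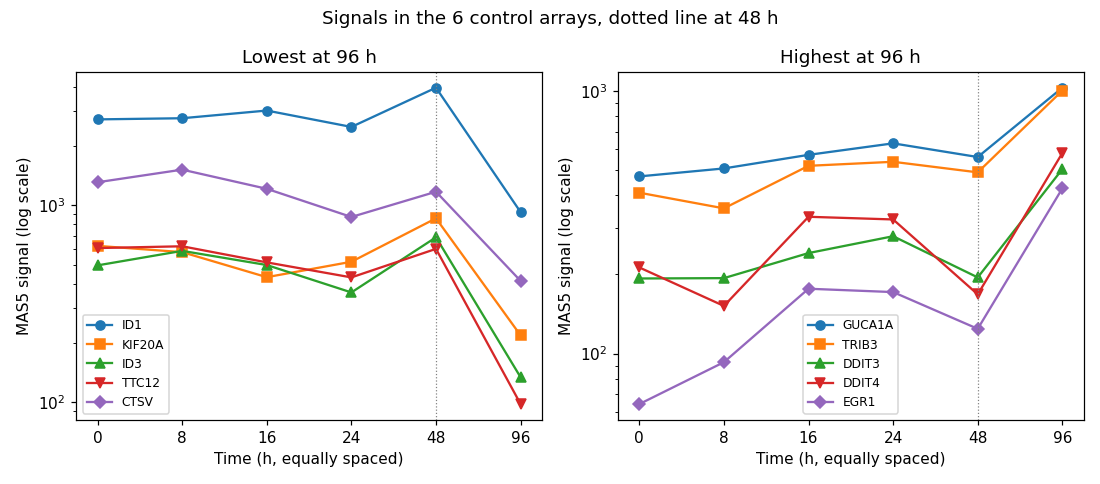
Lines give the MAS5 signal on a log axis in the 6 control arrays for 5 genes that were lowest and 5 that were highest at 96 h, chosen after their values were seen. At the dotted 48 h line all 10 depart from the direction of their 24 to 96 h course, the left group upwards and the right group downwards.

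The control course was then set against the courses labelled shOTX2, which carry the hairpin. In those arrays the targeted gene itself was not clearly lower: the brighter OTX2 probe set read 4659 ± 217 (SD, n = 3) at 0 h and 4188 ± 302 at 96 h, and the other 3027 ± 155 and 3295 ± 275, so their label rests on the submitters. A trend over these courses was called for 6906 genes (49.7%; 24.9% higher, 24.7% lower). The trend difference, control minus shOTX2, was tested by limma in the 12-group fit without the replicate block. That fit takes its error from the courses labelled shOTX2 and leaves their pairing out. The difference was called for 1639 genes higher in control (11.8%) and 1408 lower (10.1%), 21.9% in all, of which 53.8% were higher in control, or 61.2% after median centring of the arrays. With the replicate block there were 2573 (18.5%) and 2217 (15.9%), 34.5% in all. Without the 0 h control array there were 1077 and 938, and without course 2 there were 964 and 881. With the filter set on the control arrays there were 1643 and 1247.

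The mitotic genes were lower in both kinds of course and more so with the hairpin. The G2/M median was -2.15 over the courses labelled shOTX2, where 65 of 66 members fell (24.7% of all genes). The trend difference was called for 57 of 66, all with control higher (11.8% of all genes). In G1/S it was called for 38 of 51, all with control higher. At 24 h, side by side, the G2/M median was -0.45 in control and 0.00, -0.05 and -0.34 in courses 1 to 3, and that of G1/S -0.33 against -0.30, -0.34 and -0.45. CDK1 fell from 2583 ± 322 to 363 ± 75.2 with the hairpin (n = 3), and its trend difference was 1.69 ± 0.39 (SE, adjusted p by limma = 0.00457). MCM10 fell from 600.3 ± 54.1 to 79.8 ± 34.5 (difference 1.74 ± 0.32, adjusted p by limma = 0.000727), TOP2A from 2747 ± 61.7 to 660.1 ± 124 (1.16 ± 0.20, 0.000459) and KIF20A from 591 ± 68.7 to 101 ± 15.5 (1.45 ± 0.24, 0.000275). The call of TOP2A was lost with the mean of its probe sets (0.83, adjusted p = 0.174).

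The median of the ATF4 list went opposite ways, though not every member did. It was 0.40 in control and -0.57 in the courses labelled shOTX2. There 25 of 41 members fell and 3 rose (24.7% and 24.9% of all genes). The trend difference was called for 23 members higher in control and 1 lower (11.8% and 10.1% of all genes). TRIB3 fell from 292 ± 15.9 to 92.9 ± 17.7 (n = 3) with the hairpin, a trend difference of 2.65 ± 0.32 (adjusted p by limma = 1.69e-05), and SLC1A4 from 215 ± 41.5 to 96.2 ± 27.2 (1.99 ± 0.40, 0.00143). DDIT4 and DDIT3, also named above, were higher with time in both kinds of course. With the hairpin DDIT4 rose from 138 ± 42.0 to 679 ± 137 and DDIT3 from 156 ± 32.2 to 215 ± 29.0. MYC and ribosome biogenesis genes, flat in control, had 26 of 30 members falling with the hairpin and 20 called higher in control (24.7% and 11.8% of all genes). NOC3L had a trend difference of 1.34 ± 0.23 (adjusted p by limma = 0.000375), HSPA9 1.25 ± 0.21 (0.000311) and MYC 0.99 ± 0.19 (0.00104).

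Among photoreceptor genes 19 of 36 were called higher in control and none lower (11.8% and 10.1% of all genes). GUCA1A was higher by 2.06 ± 0.29 (adjusted p by limma = 6.34e-05) and GNB3 by 2.08 ± 0.46 (0.00313). The trend difference of CRX was -0.80 ± 0.34 and not called (adjusted p by limma = 0.11), while it was called with the replicate block (0.0194) and without the 96 h control array (-1.29, 0.0434). Of 25 histone genes, 19 rose and 1 fell with the hairpin (24.9% and 24.7% of all genes). The trend difference was called lower in control for 10 of them and higher for none (10.1% and 11.8% of all genes). H4C8 rose from 32.6 ± 3.07 to 152 ± 32.6 (n = 3), a trend difference of -1.18 ± 0.39 (adjusted p by limma = 0.0349). That call was lost without the 0 h, 8 h, 48 h or 96 h control array or course 2 or 3 (adjusted p between 0.0526 and 0.13). Of 42 neuronal differentiation genes, 20 were called lower in control and 2 higher (10.1% and 11.8% of all genes). GRIA2 rose from 3.17 ± 0.757 to 1579 ± 317 with the hairpin (trend difference -5.22 ± 0.69, adjusted p by limma = 3.69e-05) and SCG3 from 33.0 ± 6.79 to 515 ± 81.5 (-2.48 ± 0.34, 5.57e-05). In control GRIA2 was below the array median up to 48 h. It passed the filter only through arrays with the hairpin, where it is high, so its call follows in part from that.

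The largest trend differences belonged to genes whose control trend was small beside that of the other courses. The 6 with control highest were TIMP3, an inhibitor of metalloproteinases, HKDC1, a hexokinase, ERC2, an active zone scaffold, SLC60A1, a solute carrier, CA2, carbonic anhydrase, and GNGT2, the gamma subunit of cone transducin. TIMP3 read 342, 476, 481, 348, 351.2 and 414 in control and went from 1177 ± 609 to 32.3 ± 13.2 (n = 3) with the hairpin, a trend difference of 4.86 ± 0.55 (adjusted p by limma = 8.93e-06). ERC2 read 565, 558, 493, 484, 606 and 599 in control and went from 1038 ± 97.5 to 47.3 ± 23.3. In both genes the 0 h control array thus lay more than 1 SD below the 0 h mean of the other courses, before induction. The same held for the rest of this group. At 0 h HKDC1 read 116 in control against 275 ± 119 and SLC60A1 459 against 729 ± 151. CA2 read 169 against 489 ± 121 and GNGT2 374 against 636 ± 81.8. No test compared these.

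The 6 with control lowest were PPP1R17, a phosphatase inhibitor of Purkinje cells, CNTN2, an axonal contactin, the somatostatin receptor SSTR2, the amino acid transporter SLC7A7, MFAP4, a microfibril protein, and FNDC5, the precursor of irisin. PPP1R17 read 254, 206, 365, 345, 295 and 441 in control and went from 79.0 ± 47.2 to 4801 ± 319 (n = 3) with the hairpin, a trend difference of -5.98 ± 0.55 (adjusted p by limma = 1.28e-06). SLC7A7 had higher values with time in control too, at 47.2, 54.6, 77.6, 99.1, 87.8 and 121 (fitted difference 1.08 ± 0.24, not called), against 37.4 ± 12.6 to 2876 ± 326. CNTN2 read 9.1 to 43.6 in control and 2125 ± 215 at 96 h with the hairpin. At 0 h the control array lay more than 1 SD above the mean of the other courses in PPP1R17, SSTR2, MFAP4 and FNDC5. It read 45.5 against 25.8 ± 12.9 in SSTR2, 70.4 against 14.3 ± 10.9 in MFAP4 and 63.5 against 30.3 ± 9.62 in FNDC5. In CNTN2 and SLC7A7 it lay within 1 SD of that mean, and no test compared these. MYCN, low throughout the control course, rose from 8.83 ± 4.95 to 110.3 ± 18.7 with the hairpin, a trend difference of -2.62 ± 0.44 (adjusted p by limma = 0.000337). MYCN too passed the filter only through arrays with the hairpin, so its call follows in part from that.

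TXNIP and CTSV were themselves lowest at 96 h in control. TXNIP rose from 475 ± 73.5 to 1451 ± 199 (n = 3) with the hairpin (trend difference -2.87 ± 0.24, adjusted p by limma = 6.65e-07). CTSV fell there from 2070 ± 360 to 75.1 ± 23.4 (3.39 ± 0.40, 1.34e-05). REEP1, higher at each step in control, fell with the hairpin from 575 ± 108 to 233 ± 63.7 (1.78 ± 0.36, 0.00165), while LINC00467, lower at each step in control, rose there from 145 ± 40.3 to 291 ± 30.6 (-1.68 ± 0.37, 0.00279). RNA45SN5 did not follow the control in the other courses, at 129 ± 54.6 and 115 ± 55.8. Its trend difference of 1.88 ± 0.58 (adjusted p by limma = 0.027) was not called without the 0 h (2.07, 0.0654) or 96 h control array (0.98, 0.403), or without course 2 (1.84, 0.126) or 3 (1.97, 0.0696).

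The signs of the control trend were carried over unevenly to the courses labelled shOTX2, whose arrays are not those of the control. Of the 115 genes lower in control at an unadjusted p under 0.01, 88.7%, 89.6% and 90.4% had a negative trend in courses 1, 2 and 3. For all 6613 genes with a negative control trend these shares were 57.9%, 56.3% and 60%. Of the 115 genes, 95 (82.6%) were called lower in the courses labelled shOTX2, against 32.5% of the 6613. Of the 103 genes higher in control, 55.3%, 60.2% and 57.3% had a positive trend, close to the 58.6%, 60.8% and 57% of all genes with a positive control trend. Of these 103, 46 (44.7%) were called higher in the courses labelled shOTX2 and 26 (25.2%) were called lower, against 31.8% and 17.7% of all genes with a positive control trend.

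**Figure D5:**
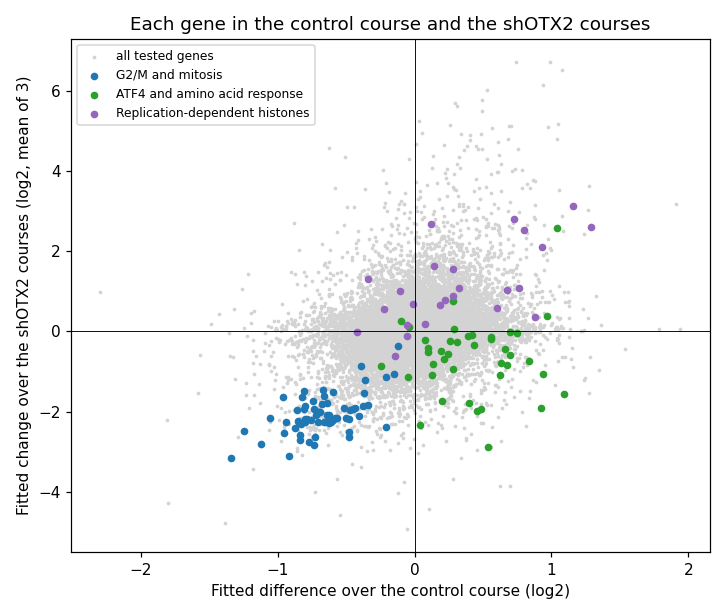
Each point is a tested gene, with its fitted difference over the control course on the horizontal axis and its fitted change over the courses labelled shOTX2 on the vertical axis (both log2). The G2/M genes lie in the lower left with both values negative, the ATF4 genes mostly right of 0 and below it, and the histone genes mostly in the upper right.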

How the data were processed

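The authors deposited MAS5 signal intensity for 54675 probe sets on 24 arrays. The tools named, per the submitters' processing notes, are GCOS and MAS5. The deposited intensity of every array had a 2% trimmed mean between 100.011 and 100.014, so arrays had been scaled as a whole, which hides a shift shared by most genes. Precision is limited by how many arrays there are.

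Probe sets with 1 gene symbol (41097) were kept when above the array median on at least 3 of 24 arrays, and the brightest stood for its gene. Tests used limma 3.58.1 in R 4.3.3 on log2(signal + 16), which understates changes of dim genes, with Benjamini-Hochberg adjustment over 13903 genes. The control trend has 4 residual degrees of freedom, the 12-group fit 12. The control arrays are then assumed to vary like the shOTX2 arrays. The course number pairs arrays, since the labels describe independent courses and all 45 same-number pairs of arrays correlated in their deviations (r from 0.157 to 0.556). Only the fit with the replicate block uses this pairing. Trends of the courses labelled shOTX2 and trend differences are from the 12-group fit without it, unless the block is named. P-values measure the spread between these arrays, which may be technical in part. Functions were tested on simulated data.

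Members and the 31 gene lists (1018 genes, 817 tested) were chosen with earlier results of these data known. Named genes are those in the same direction at every step with an unadjusted p under 0.01 (none was called), list members among the 4 largest, the 6 largest trend differences each way, and OTX2, CRX, MYC, MYCN and markers. Alternatives changed the pseudocount, filter, scaling, probe set summary, time scale and arrays used.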

Additional observations from a re-analysis of the deposited data

Results flagged for a closer look

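The trends of the control course and of the courses labelled shOTX2 differed, by limma's test of the difference itself, for 32 of the genes whose difference is reported. Many of these genes are reported because their difference was called, so the count follows from that choice. Over all tested genes 21.9% were called, and the difference of CRX, also reported, was not. Values are the fitted difference in control minus that in the other courses on the log2 scale. Higher in control were TIMP3 (4.86), HKDC1 (4.54), ERC2 (4.53), SLC60A1 (4.47), CA2 (4.04), GNGT2 (3.98), CTSV (3.39), TRIB3 (2.65), GNB3 (2.08), GUCA1A (2.06), SLC1A4 (1.99), RNA45SN5 (1.88), REEP1 (1.78), MCM10 (1.74), CDK1 (1.69), KIF20A (1.45), NOC3L (1.34), HSPA9 (1.25), TOP2A (1.16) and MYC (0.99).

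Lower in control were PPP1R17 (-5.98), CNTN2 (-5.73), SSTR2 (-5.50), SLC7A7 (-5.44), MFAP4 (-5.40), FNDC5 (-5.33), GRIA2 (-5.22), TXNIP (-2.87), MYCN (-2.62), SCG3 (-2.48), LINC00467 (-1.68) and H4C8 (-1.18). Groups here hold 1 or 3 arrays, so no single array could be checked against its own group.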

How the results depend on the processing

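The control trend was called for no gene in the main fit. Calls appeared with hours in place of rank (1 higher), with the replicate block (84 higher, 111 lower; 2129 genes at an unadjusted p under 0.05) and without single control arrays (0 to 31 higher, 0 to 79 lower, and 524 to 1623 at an unadjusted p under 0.05). Curvature was called for 0 genes in all its alternatives. Trend differences numbered 1033 higher and 873 lower for 96 h against 0 h, 2573 and 2217 with the replicate block, and 964 to 2118 and 881 to 1801 without single arrays or courses. Genes past 2-fold depend on the added constant: 1183, 1243, 1244, 1611 and 1474 at 8, 16, 24, 48 and 96 h with a pseudocount of 1, and 1, 4, 5, 21 and 82 with 64. Median centring moved the median shOTX2 trend of all genes to -0.11 from 0.02 and that of the control course to -0.03. Values near 0 changed sign: OTX2 (-0.012 with median centring), TIMP3 (0.0054 with the mean of probe sets, 0.0065 with log2 hours) and MFAP4 (-0.058 with hours). Without single arrays the fitted control difference ran from -0.025 to 0.084 for OTX2, -0.41 to 0.086 for TIMP3, -0.091 to 0.45 for FNDC5, -0.027 to 0.64 for RPL3, -0.038 to 1.26 for HKDC1, -8.12e-05 to 0.24 for ERC2, -0.27 to 1.22 for EIF2AK3, -0.58 to 0.19 for UTP20, -1.52 to 0.46 for ID1, -1.89 to 0.12 for ID3 and -1.36 to 0.38 for KIF20A. Of the comparisons of named trend differences with an alternative, 628 kept their side of the threshold and direction, 14 lost it and 2 gained it. The causes were not tested. A single course, array scaling and signals near the array median limit all values.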
